A study of Homo sapiens with 6 samples.

Results

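The genes described here are the VEGF ligands VEGFA, VEGFB, VEGFC and PGF, the neuropilin coreceptors NRP1 and NRP2, and ANGPTL4 and THBS1, which encode 2 further secreted regulators of vessels. All probe sets whose platform symbol was exactly one of these 8 names were taken, which gave 34 of the 49293 probe sets tested and 8 of the 18132 genes. The cells were MDA-MB-231, a human triple-negative breast cancer line with mesenchymal features. One group of 3 arrays came from cells given 5 µM SAHA for 8 h, and the other group of 3 arrays came from cells given DMSO, its solvent, for 8 h. SAHA (vorinostat) inhibits zinc-dependent histone deacetylases. Both groups were the same single line in the same serum-containing medium, and no allele or further agent is given for either. Whether the replicates were grown apart is not stated in the labels, and the p-values therefore speak only of variation among these 6 samples, which may be technical. The number of arrays limits the precision of each value. All levels are log2 expression values, one per probe set and array, so a difference of 1 is a doubling.

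VEGF ligands are secreted dimers that bind receptor tyrosine kinases on endothelial cells. VEGFA acts mainly through KDR and drives the growth and leakiness of blood vessels, VEGFC acts mainly through FLT4 and drives the growth of lymphatic vessels, and VEGFB and PGF bind FLT1. Neuropilins have no kinase activity of their own. They bind some VEGF forms and class 3 semaphorins and join the receptor complexes, NRP1 mainly on arterial and NRP2 mainly on venous and lymphatic endothelium, and tumour cells can carry both. ANGPTL4 is a secreted inhibitor of lipoprotein lipase whose gene responds to fatty acids, fasting and low oxygen. THBS1 encodes thrombospondin-1, a matrix glycoprotein that restrains endothelial growth through CD36 and CD47 and can activate latent TGF-beta.

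Over the 34 probe sets, 11 were higher and 7 were lower with SAHA, and 16 did not pass an adjusted p of 0.05 (limma, adjusted over all 49293 probe sets). Over all probe sets 46.4% passed, 22.2% as higher and 24.1% as lower with SAHA, so the 18 called here stand near the share of the whole array. In 20 of the 34 probe sets the SAHA and DMSO arrays did not overlap, against 54.4% of all probe sets. The median log2 difference, SAHA minus DMSO, was -0.08 over the 34 and -0.02 over all probe sets. By the brightest probe set of each gene, VEGFC, NRP1 and VEGFB were lower with SAHA, and ANGPTL4, THBS1, PGF and NRP2 were higher. VEGFA did not pass the test.

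The sequences just upstream of the annotated starts are shown for VEGFC, ANGPTL4 and THBS1, the genes with the widest fall and the widest rises. They are RefSeq sequences of build GRCh38.p14, 250 bases each, 5′ to 3′ on the gene's own strand and ending at the base before the start. Capitals mark GGGCGG, the core of a GC box, or its reverse complement CCGCCC, and also TATAAA, the TATA box.
VEGFC, chr4:176792923-176793172, minus strand: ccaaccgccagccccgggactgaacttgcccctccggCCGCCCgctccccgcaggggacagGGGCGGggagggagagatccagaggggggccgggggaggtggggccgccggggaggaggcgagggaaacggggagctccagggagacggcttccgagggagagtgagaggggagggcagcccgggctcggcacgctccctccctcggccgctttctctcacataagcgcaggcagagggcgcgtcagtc
ANGPTL4, chr19:8363905-8364154, plus strand: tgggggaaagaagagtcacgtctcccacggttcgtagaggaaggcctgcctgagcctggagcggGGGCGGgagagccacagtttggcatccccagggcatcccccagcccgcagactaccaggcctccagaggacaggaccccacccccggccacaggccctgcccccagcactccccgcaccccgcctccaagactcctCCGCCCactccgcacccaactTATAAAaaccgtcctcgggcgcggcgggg
THBS1, chr15:39580829-39581078, plus strand: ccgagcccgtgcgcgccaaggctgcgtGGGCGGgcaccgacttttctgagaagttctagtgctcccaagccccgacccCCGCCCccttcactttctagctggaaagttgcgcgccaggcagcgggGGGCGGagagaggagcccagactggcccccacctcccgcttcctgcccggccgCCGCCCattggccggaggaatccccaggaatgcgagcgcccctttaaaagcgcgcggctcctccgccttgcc
The GC content was 74.0% for VEGFC, 68.8% for ANGPTL4 and 69.6% for THBS1, against a median of 58% over 35116 such windows. Searched on both strands, GGGCGG was found 2 times in VEGFC, 2 times in ANGPTL4 and 4 times in THBS1, and in 42.6% of all windows. TATAAA was found in ANGPTL4 alone of the 3, at -29 to -24 from the start, and in 10.7% of all windows. Of the cores of the hypoxia response element, ACGTG (18.5% of windows) was found once in ANGPTL4, at -234 to -230. GCGTG (32.2% of windows) was found once in VEGFC and once in THBS1, in THBS1 at -227 to -223, sharing 1 base with a GGGCGG. The AP-1 element TGACTCA (4.20% of windows) was found in none of the 3. These matches describe letters in a short window only. Windows for VEGFB, PGF and NRP2 were searched too, with 2 to 6 matches of GGGCGG each and none of the TATA box, of the first hypoxia core or of the AP-1 element.

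Arrays of one group correlated at 0.997 to 0.998 across probe sets, and arrays of different groups at 0.968 to 0.970. The difference between the 3' and 5' control probe sets of ACTB, a measure of RNA integrity and amplification, was 0.61 ± 0.06 on SAHA arrays and 0.89 ± 0.16 on DMSO arrays (SD, n = 3 each; exact permutation test, two-sided, p = 0.1, below which 3 arrays against 3 cannot go). Poly-A spike-ins averaged 6.65 ± 0.08 and 6.83 ± 0.13 on SAHA and DMSO arrays (exact p = 0.2). The part of these measures in the results was not tested. A fit with the ACTB difference as a covariate left 8 of the 34 probe sets higher and 5 lower. Centring on the poly-A spike-ins gave 14 higher and 6 lower, and centring on ribosomal protein genes gave 12 higher and 5 lower. Centring on the hybridization spike-ins gave 11 higher and 8 lower. The markers of the labelled line were present in both groups, with means over the 6 arrays from 11.80 for KRT18 to 13.99 for VIM. All but VIM were lower with SAHA, with log2 differences of -0.57 for CD44, -0.55 for KRT18, -0.71 for CAV1 and -0.38 for AXL. Of the genes taken as low in this line, PGR averaged 3.33, CDH1 4.18 and ESR1 5.99, but ERBB2 averaged 7.39 and EPCAM 8.21, and these last were lower with SAHA, at -0.47 and -0.93. Of the endothelial markers CDH5 averaged 4.94 and EMCN 3.26, but VWF averaged 5.87, KDR 5.91 and TIE1 6.95. The mean of the 10 endothelial markers ran from 5.31 to 5.41 on SAHA arrays and from 5.47 to 5.68 on DMSO arrays. One of the 10, ROBO4, a receptor best known from endothelium, fell to 7.65 ± 0.07 with SAHA, against 10.49 ± 0.04 with DMSO (adjusted p = 1.17e-07). The other 9 did not pass, and the median log2 difference over the 10 was 0.04, so the lower mean with SAHA rests on ROBO4. The mean of the 3 lymphatic endothelial markers ran from 5.04 to 5.24 with SAHA and from 4.997 to 5.23 with DMSO, with PROX1 at 3.77. That of 4 leukocyte markers ran from 5.41 to 5.51 with SAHA and from 5.30 to 5.37 with DMSO. PTPRC stood at 3.29 and CD68 at 9.09, CD14 was higher with SAHA by 1.01, and CD3E and CD68 were lower, at -0.25 and -0.24. The mean of the 5 fibroblast markers ran from 4.50 to 4.53 with SAHA and from 4.25 to 4.29 with DMSO. LUM stood at 2.82, while COL1A1 and PDGFRB were higher with SAHA, by 0.50 and 0.51. All values come from bulk RNA, in which fewer cells of a kind and less RNA per cell cannot be told apart.

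**Figure D1:**
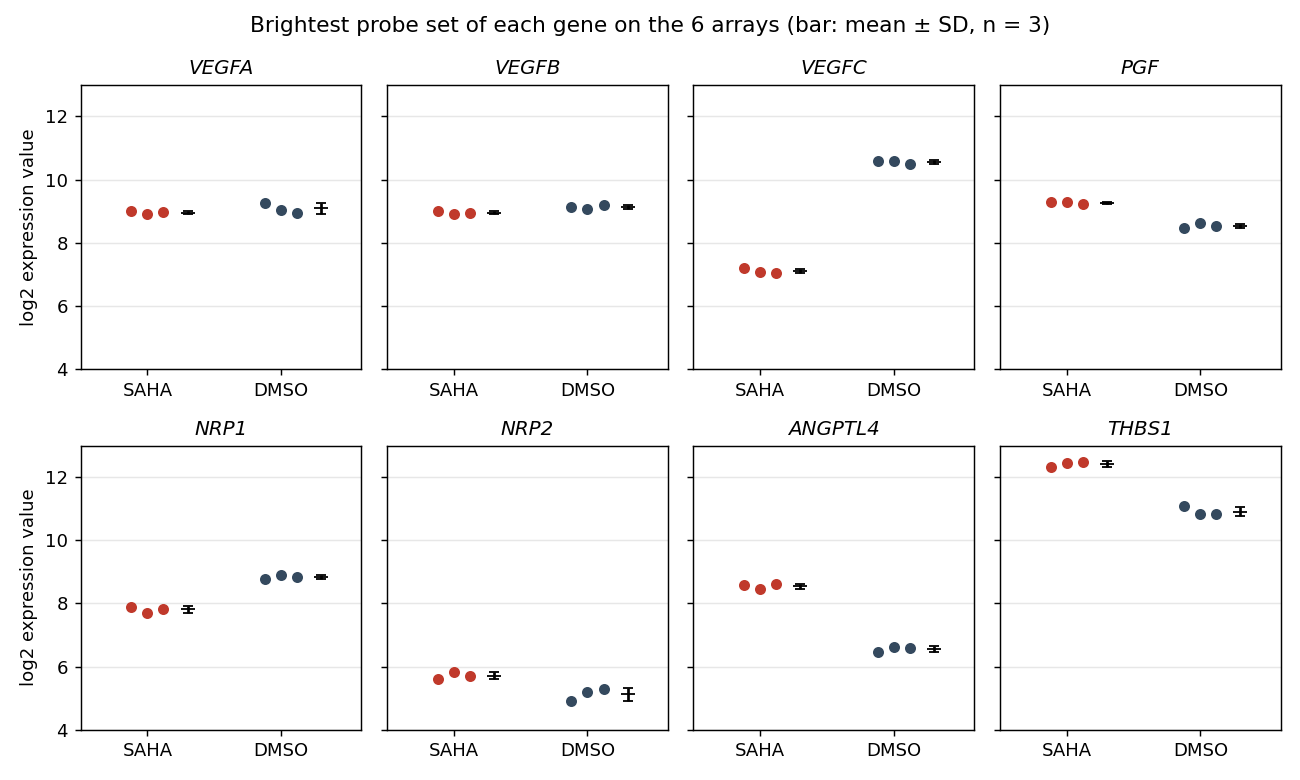
Each panel shows one gene by its brightest probe set, with the log2 expression value on the vertical axis, 3 SAHA arrays in red on the left and 3 DMSO arrays in dark grey on the right; the bar beside each group is the mean ± SD (n = 3). VEGFC lies between 7.05 and 7.19 with SAHA and between 10.49 and 10.59 with DMSO, ANGPTL4 and THBS1 lie higher with SAHA, and the 2 groups of VEGFA overlap; levels of different genes rest on different probes and are not to be compared.

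The VEGF ligands moved in different directions. VEGFC fell by the widest margin of the 8 genes, PGF rose, VEGFB fell slightly, and VEGFA did not pass the test on any of its 10 probe sets.

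VEGFC, the main lymphangiogenic ligand, had 7.19, 7.07 and 7.05 on the SAHA arrays and 10.59, 10.58 and 10.49 on the DMSO arrays. Every SAHA array lay more than 3 log2 units below every DMSO array. The means were 7.11 ± 0.08 with SAHA and 10.55 ± 0.06 with DMSO (SD, n = 3 each), a log2 difference of -3.45 ± 0.07 (SE; 95% interval -3.60 to -3.29; adjusted p = 9.72e-08). VEGFC was thus 10.9-fold lower with SAHA, with an interval of 9.78 to 12.1. It ranked 16 from the lowest among the log2 differences of all 49293 probe sets. The gene has 1 probe set on the array, so no second one was at hand to set beside it.

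PGF, placenta growth factor, which binds FLT1 and neuropilins, had 9.29, 9.28 and 9.24 with SAHA and 8.48, 8.61 and 8.52 with DMSO. The groups did not overlap. The log2 difference was 0.73 ± 0.06 (95% interval 0.59 to 0.88; adjusted p = 3.24e-05), a 1.66-fold rise with an interval of 1.50 to 1.84. Of all probe sets, 91.7% had a lower log2 difference. PGF too is read by 1 probe set.

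VEGFA was measured by 10 probe sets with means from 5.50 to 9.02. The brightest had 8.99, 8.91 and 8.96 with SAHA and 9.27, 9.04 and 8.95 with DMSO. The lowest DMSO array lay within the SAHA arrays, and the DMSO values spread more widely. The log2 difference was -0.13 ± 0.09 (adjusted p = 0.275), and its 95% interval of -0.34 to 0.07 corresponds to between 0.789 and 1.05 times the DMSO level. Centring on poly-A spike-ins gave 0.05, also uncalled. Over the 10 probe sets the log2 differences ran from -0.25 to 0.17 with a median of -0.14. None of the 10 passed limma's adjusted threshold, 2 had an unadjusted p under 0.05, and an ordinary test per probe set with the same adjustment called 0. A single one of them, with a mean of 7.83, had a positive difference, 7.84, 7.82 and 8.07 with SAHA against 7.88, 7.80 and 7.55 with DMSO. Set against the brightest within each array, its log2 difference was 0.30 ± 0.09 higher, without overlap of the groups (exact p = 0.1, 0.2 after adjustment over 26 such pairs). The platform annotation does not say which VEGFA transcripts each probe set reads.

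VEGFB, a ligand of FLT1, had 9.001, 8.922 and 8.928 with SAHA and 9.144, 9.067 and 9.189 with DMSO. The groups did not overlap, but the nearest arrays lay 0.07 apart. The log2 difference was -0.18 ± 0.06 (95% interval -0.33 to -0.04; adjusted p = 0.0444). This call was lost under 15 of 23 other settings, where its log2 difference lay between -0.21 and -0.00, among them the fit with the ACTB covariate (-0.20) and the centring on poly-A spike-ins (-0.00).

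The neuropilins moved in opposite directions. NRP1 fell on 5 of its 6 probe sets, and NRP2 rose on 4 of its 9, most of them at low levels.

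NRP1, which binds VEGFA and SEMA3A, had 7.90, 7.70 and 7.84 with SAHA and 8.78, 8.91 and 8.83 with DMSO on its brightest probe set, and the groups did not overlap. The log2 difference was -1.03 ± 0.07 (adjusted p = 1.35e-05), or 2.04-fold lower with SAHA. The second brightest had 6.93, 6.77 and 6.68 with SAHA and 9.31, 9.10 and 9.10 with DMSO, a difference of -2.38 ± 0.09 or 5.19-fold (adjusted p = 7.67e-07). The size of the fall thus differed between probe sets.

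The third NRP1 probe set had 5.57, 5.34 and 5.34 with SAHA and 7.43, 7.77 and 7.61 with DMSO, a difference of -2.19 ± 0.11 (adjusted p = 2.01e-06). On the fourth, with 4.30, 4.65 and 4.48 in SAHA cells and 5.63, 5.96 and 6.13 in DMSO cells, the difference was -1.43 ± 0.14 (adjusted p = 6.77e-05). All 4 kept the groups apart. The other two averaged about the same low level, 3.97 and 4.03, and their differences were -0.51 ± 0.15 (adjusted p = 0.0216) and -0.04 ± 0.11 (adjusted p = 0.789).

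Within each array the brightest NRP1 probe set fell less than the second by 1.35 ± 0.12 and less than the third by 1.16 ± 0.08 log2 units, without overlap of the groups in either case (exact p = 0.1, adjusted 0.2). Such within-array differences are not touched by a scaling of the arrays. Over all NRP1 probe sets the mean gave a log2 difference of -1.26. The annotation does not assign these probe sets to the membrane or the soluble forms of neuropilin-1.

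NRP2, the coreceptor of VEGFC and of SEMA3F, had 5.60, 5.82 and 5.71 with SAHA and 4.90, 5.20 and 5.29 with DMSO on its brightest probe set. The groups did not overlap, and the nearest arrays lay 0.30 apart. The log2 difference was 0.58 ± 0.11 (adjusted p = 0.00299), or 1.49-fold. With the ACTB difference as a covariate it was 0.22 and no longer passed (adjusted p = 0.197).

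Of the other 8 NRP2 probe sets, 3 rose, by 0.34 ± 0.08, 0.45 ± 0.08 and 0.27 ± 0.08 (adjusted p = 0.00627, 0.00218 and 0.0242). The remaining 5 did not pass, with log2 differences from -0.09 to 0.15, and the median over all 9 was 0.15. Of the 9, 7 averaged below 5, a range in which 15.1% of all probe sets passed the test, against 73.7% between 7 and 9. The 23 antigenomic background controls had a median of 3.23 ± 0.03 on SAHA arrays and 3.29 ± 0.04 on DMSO arrays. Values near the floor of the scale understate a change.

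**Figure D2:**
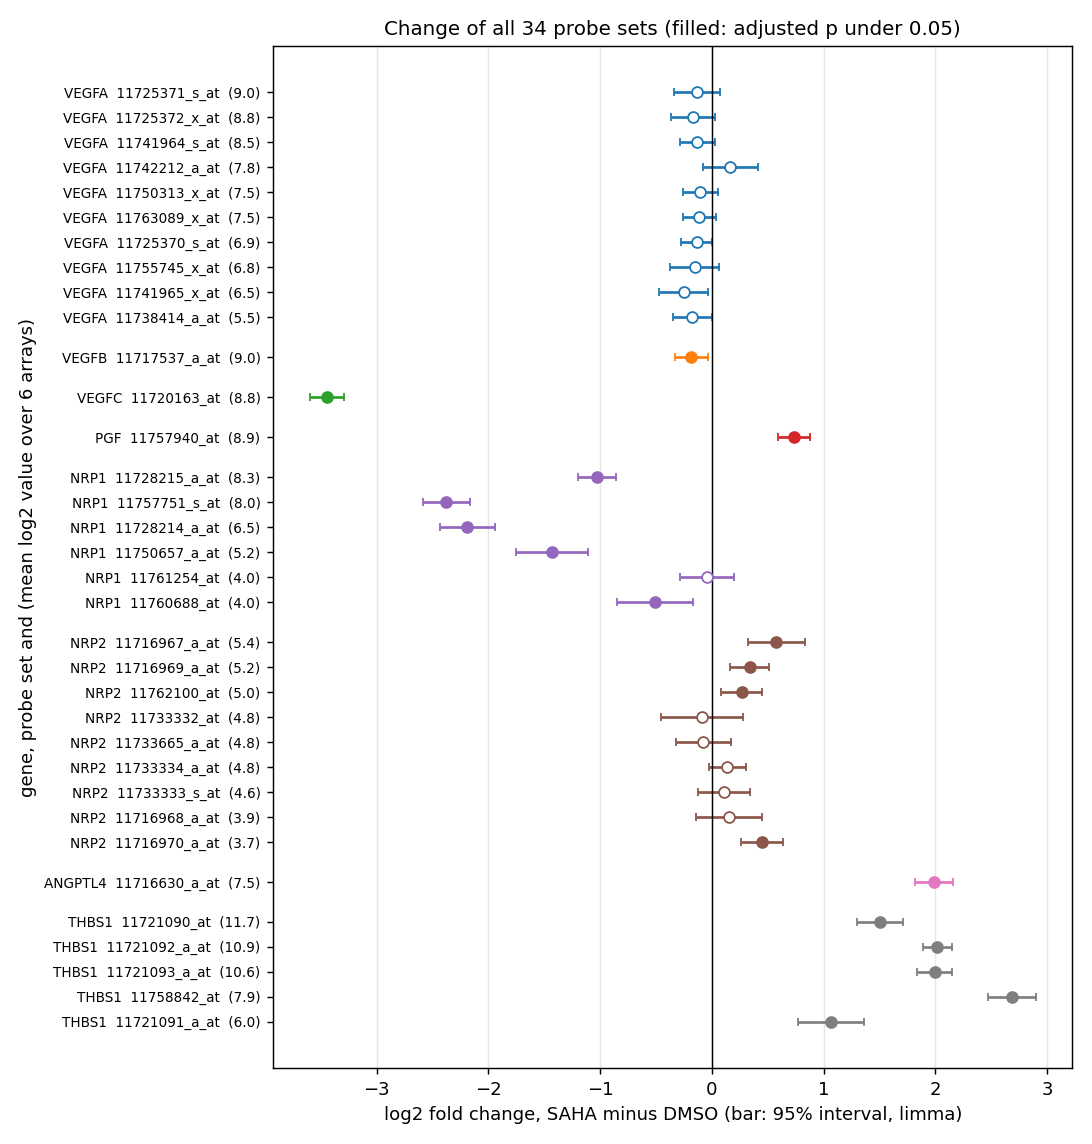
The log2 fold change, SAHA minus DMSO, of all 34 probe sets is shown on the horizontal axis with its 95% interval, grouped by gene, with the mean log2 value over 6 arrays in brackets; filled points passed an adjusted p of 0.05. The 10 VEGFA points are open and lie between -0.25 and 0.17, 5 of 6 NRP1 points and the VEGFC point lie filled on the left, and all 5 THBS1 points and the ANGPTL4 point lie filled on the right.

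ANGPTL4 and THBS1 both rose. ANGPTL4 rose 3.96-fold on its 1 probe set, and THBS1 rose on all 5 of its probe sets, by 2.10-fold to 6.43-fold.

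ANGPTL4 had 8.57, 8.45 and 8.61 with SAHA and 6.46, 6.61 and 6.59 with DMSO. The groups lay 1.83 log2 units apart at their nearest. The log2 difference was 1.99 ± 0.07 (95% interval 1.82 to 2.16; adjusted p = 6.77e-07), which is 3.96-fold with an interval of 3.52 to 4.46. Of all probe sets, 99.0% had a lower log2 difference.

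THBS1 had 12.32, 12.44 and 12.49 with SAHA and 11.07, 10.84 and 10.83 with DMSO on its brightest probe set, a log2 difference of 1.50 ± 0.09 or 2.84-fold (adjusted p = 4.72e-06). The second had 11.93, 11.95 and 11.92 with SAHA and 9.94, 9.91 and 9.90 with DMSO, a difference of 2.02 ± 0.06 or 4.04-fold (adjusted p = 2.78e-07). No SAHA array overlapped a DMSO array on any of the 5.

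The third THBS1 probe set had 11.64, 11.56 and 11.58 with SAHA and 9.52, 9.58 and 9.69 with DMSO, a difference of 1.996 ± 0.068 (adjusted p = 5.06e-07). On the fourth, with 9.14, 9.31 and 9.22 in SAHA cells and 6.49, 6.41 and 6.71 in DMSO cells, the difference was 2.69 ± 0.09, or 6.43-fold (adjusted p = 5.48e-07). The dimmest had 6.37, 6.61 and 6.74 with SAHA and 5.72, 5.48 and 5.31 with DMSO, a difference of 1.07 ± 0.13 (adjusted p = 2.05e-04). The brightest probe set thus gave a smaller difference than 3 of the other 4. Set against each of those within each array, its difference was lower by between 0.49 and 1.18 log2 units, and it was higher than that of the dimmest by 0.43 ± 0.08. The groups separated in all 4 of these contrasts (exact p = 0.1 each, adjusted 0.2).

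**Figure D3:**
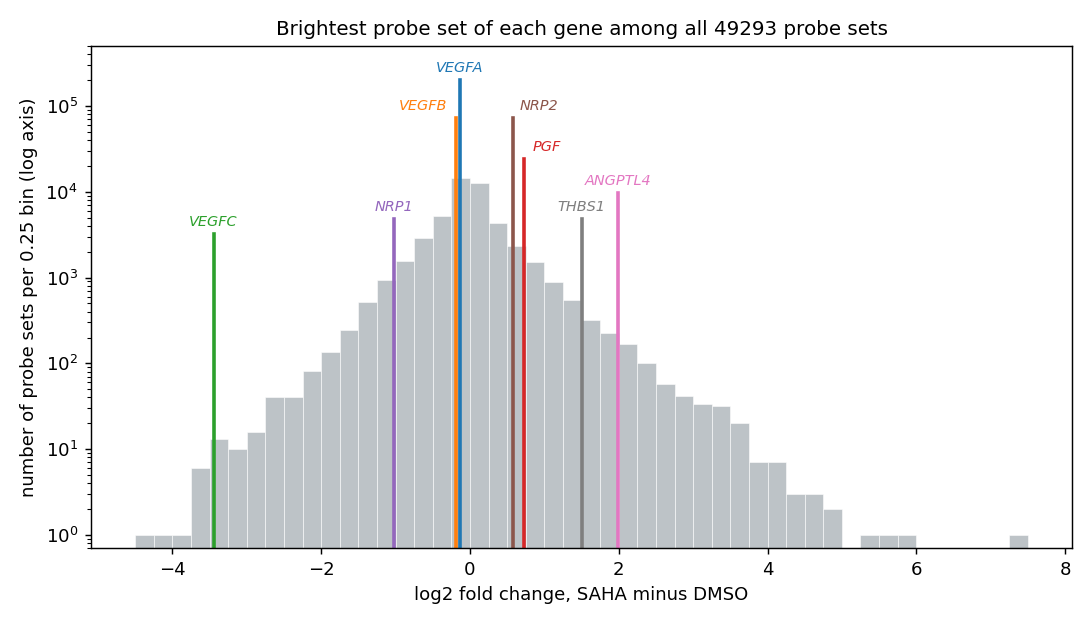
Grey bars count all 49293 probe sets by log2 fold change, SAHA minus DMSO, in bins of 0.25, with the count on a log axis; each coloured line marks the brightest probe set of one gene. VEGFC at -3.45 lies far out in the left tail, ANGPTL4 at 1.99 and THBS1 at 1.50 lie in the right shoulder, and VEGFA at -0.13 and VEGFB at -0.18 lie in the central peak.

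The unequal changes of the 8 genes were set against each other within arrays, over all 28 pairs of brightest probe sets. In 26 pairs the groups did not overlap, with an exact p of 0.1 and 0.108 after adjustment over the pairs. The log2 difference of VEGFA lay 3.31 ± 0.08 above that of VEGFC (SE). VEGFC minus PGF came to -4.18 ± 0.06, and NRP1 minus NRP2 to -1.60 ± 0.16. The widest gap was that of VEGFC and ANGPTL4, at -5.43 ± 0.09. ANGPTL4 and THBS1, which both rose, differed by 0.48 ± 0.15 in favour of ANGPTL4, but 3 of the 5 THBS1 probe sets had differences at or above that of ANGPTL4. The pairs whose groups overlapped were VEGFA and VEGFB, 0.05 ± 0.11 apart (exact p = 0.7), and PGF and NRP2, 0.16 ± 0.12 apart (exact p = 0.4, adjusted 0.415).

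The other genes of these pathways were counted in 13 lists with 120 distinct genes, with 111 measured and the other 9 not analysed here. Of the 111, 46 were higher and 18 lower with SAHA and 47 did not pass. Thus 57.7% were called, against 48.3% of all 18132 genes (24.6% higher and 23.8% lower). The share called depends on the level. Among genes with a mean of at least 7, 31 of 58 list genes were higher and 16 lower. Of all 8605 genes at that level, 3345 were higher and 3680 lower, so the list genes did not stand out there by the share called. The median log2 difference was 0.16 over the lists and -0.01 over all genes. Centring on ribosomal protein genes gave 64 higher and 15 lower, and centring on poly-A spike-ins 59 higher and 12 lower, while the median of all genes moved up by 0.12 and 0.18. The share of higher among the called list genes was 71.9%, against 81.0% and 83.1% under these centrings. The calls over all 18132 genes moved the same way, from 4457 higher and 4307 lower without centring. They became 6168 higher and 3340 lower with ribosomal protein genes, and 6023 higher and 2412 lower with poly-A spike-ins. The rise in this share was thus not particular to the list genes.

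Around the ligands, the VEGF receptors were dim and 0 of 3 passed limma's adjusted test, with none at an unadjusted p under 0.05. FLT1, the receptor of VEGFB and PGF, stood at 3.88 with SAHA and 3.73 with DMSO, near the background controls. FLT4, the receptor of VEGFC, stood at 6.71 with SAHA and 6.73 with DMSO, and KDR at 6.03 ± 0.25 and 5.79 ± 0.05 in SAHA and DMSO cells (log2 difference 0.24 ± 0.12, adjusted p = 0.140). With either centring 2 of the 3 passed as higher, and with that on hybridization spike-ins 0. Of 10 genes that cut VEGFC and VEGFD into their active forms or help to do so, 4 rose, 2 fell and 4 did not pass (median 0.08). With the ACTB covariate, and with each gene's second brightest probe set, 2 were higher and 2 lower. CCBE1, the scaffold on which pro-VEGFC is cleaved, fell to 7.47 ± 0.07 with SAHA, against 8.66 ± 0.12 with DMSO (-1.19 ± 0.08, adjusted p = 7.53e-06). The plasminogen activators went opposite ways, with PLAU at -2.65 ± 0.07 and PLAT at 1.91 ± 0.06 (adjusted p = 1.97e-07 and 3.20e-07). VEGFC and CCBE1 were thus both lower with SAHA.

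Of 12 measured partners of the neuropilins, semaphorins and plexins, 4 rose, 3 fell and 5 did not pass, and with the centrings on ribosomal protein genes and on poly-A spike-ins the median of -0.03 became 0.09 (5 higher, 2 lower) and 0.15 (4 higher, 2 lower). SEMA3A, the classical ligand of NRP1, fell to 7.54 ± 0.07 with SAHA, against 8.73 ± 0.11 with DMSO (-1.19 ± 0.07, adjusted p = 6.74e-06). SEMA3F, which binds NRP2, rose to 6.71 ± 0.15 with SAHA, against 5.65 ± 0.38 with DMSO (1.06 ± 0.18, adjusted p = 0.00157). Among the plexins PLXNA2 fell by 1.17, while PLXNA1 rose by 0.55 on its brightest probe set (adjusted p = 9.21e-05 and 1.71e-04) but stood at 0.01 on its second.

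VEGFA and ANGPTL4 are known targets of the hypoxia-inducible factors. Of 9 measured regulators of that pathway 3 rose, 1 fell and 5 did not pass (median 0.06). Centring on ribosomal protein genes called 5 as higher, and the second brightest probe sets 1. EPAS1, which encodes HIF-2 alpha, rose to 10.05 ± 0.02 with SAHA, against 6.63 ± 0.06 with DMSO (3.42 ± 0.06, adjusted p = 8.52e-08), and by 0.995 on its second probe set. EGLN1 was the one that fell, with a log2 difference of -0.49 ± 0.05 (adjusted p = 1.25e-04). HIF1A stood at 11.47 ± 0.09 with SAHA and 11.47 ± 0.04 with DMSO. Of 13 measured targets of the pathway 10 rose, 1 fell and 2 did not pass, with a median of 0.60. By their second brightest probe sets 7 were higher and 1 lower, and the median was 0.27. By the mean of each gene's probe sets the median was 0.35 (10 higher, 1 lower). NDRG1, DDIT4 and P4HA2 rose by 2.46, 2.36 and 1.58 log2 units, and P4HA1 fell by 0.44, a call that was lost with centring on poly-A spike-ins (-0.26). VEGFA, in contrast, had a log2 difference of -0.13 that did not pass.

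ANGPTL4 is also a target of the PPAR receptors. All 10 measured receptors, partners and shared targets were called, 6 as higher and 4 as lower, with a median of 0.47. The 6 higher ones stood beside 2 and 1 lower genes with the centrings on ribosomal protein genes and on poly-A spike-ins. The ACTB covariate left 5 higher and 2 lower. By each gene's second brightest probe set 4 were higher and 3 lower, and the median was 0.11. By the mean of each gene's probe sets the median was 0.21 (5 higher, 4 lower). PDK4, which restrains glucose oxidation, rose by 3.01 ± 0.13 (1.56 on its second probe set), and CPT1A, the gatekeeper of mitochondrial fatty acid import, by 1.78 ± 0.06 (0.88). PPARA rose by 1.52 ± 0.06 on its brightest probe set, but the mean of its 9 probe sets gave 0.35, and RXRB fell by 0.58. Of the 4 measured relatives of ANGPTL4 only ANGPTL6 passed, with 0.30 ± 0.11 (adjusted p = 0.0473), which held in 8 of 22 other settings and not with the ACTB covariate. Of 4 measured genes of the lipase axis on which it acts, LIPG, endothelial lipase, rose to 7.10 ± 0.08 with SAHA, against 4.60 ± 0.30 with DMSO (2.50 ± 0.14, adjusted p = 4.07e-06), and by 0.71 on its second probe set, while LMF1 (0.16 ± 0.08) and GPIHBP1 (-0.15 ± 0.09) did not pass. With either centring LMF1 passed too, at 0.28 and 0.34.

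Of the 4 other thrombospondins, THBS4 alone passed, with 0.37 ± 0.08 at a low level of 3.89 in SAHA cells and 3.51 in DMSO cells (adjusted p = 0.00644), a call lost with the ACTB covariate, whereas the 2 centrings called 4 and 3 of the 4 as higher. THBS2 had 0.20 ± 0.09 and did not pass (adjusted p = 0.111). Of 11 receptors and partners of THBS1, 4 rose, 2 fell and 5 did not pass, and with the 2 centrings the median of -0.00 became 0.12 (5 higher, 2 lower) and 0.18 (4 higher, 1 lower). The ACTB covariate left 2 higher and 1 lower. SDC4, a heparan sulfate proteoglycan of the cell surface, rose to 13.29 ± 0.03 with SAHA, against 11.56 ± 0.04 with DMSO, while its relative SDC1 fell to 8.73 ± 0.02 with SAHA, against 9.84 ± 0.05 with DMSO. Of 10 other endogenous inhibitors of angiogenesis 5 rose, 1 fell and 4 did not pass (median 0.24), and either centring called 8 as higher and 1 as lower. TIMP3 rose by 1.05 (1.79 on its second probe set) and ADAMTS1 fell by 1.31. VASH2, counted among the 5 although it is described mainly as promoting vessel growth, rose by 1.80 on its brightest probe set (0.66 as a mean of its probe sets).

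None of the 5 angiopoietins and TIE receptors passed limma's adjusted test, none had an unadjusted p under 0.05, and the ordinary test called 0. Either centring called ANGPT1 as higher, while that on hybridization spike-ins called 0 of the 5. The second brightest probe sets called TIE1 as higher, and the mean of each gene's probe sets called 1 gene as lower. Of 17 other angiogenic factors 8 rose, 4 fell and 5 did not pass, with a median of 0.18. EDN1, endothelin-1, fell to 6.42 ± 0.09 with SAHA, against 9.25 ± 0.09 with DMSO (-2.83 ± 0.07, adjusted p = 1.99e-07). PDGFC fell by 1.96, and CXCL8, interleukin-8, rose by 1.62 log2 units (adjusted p = 2.63e-07 and 4.86e-07).

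**Figure D4:**
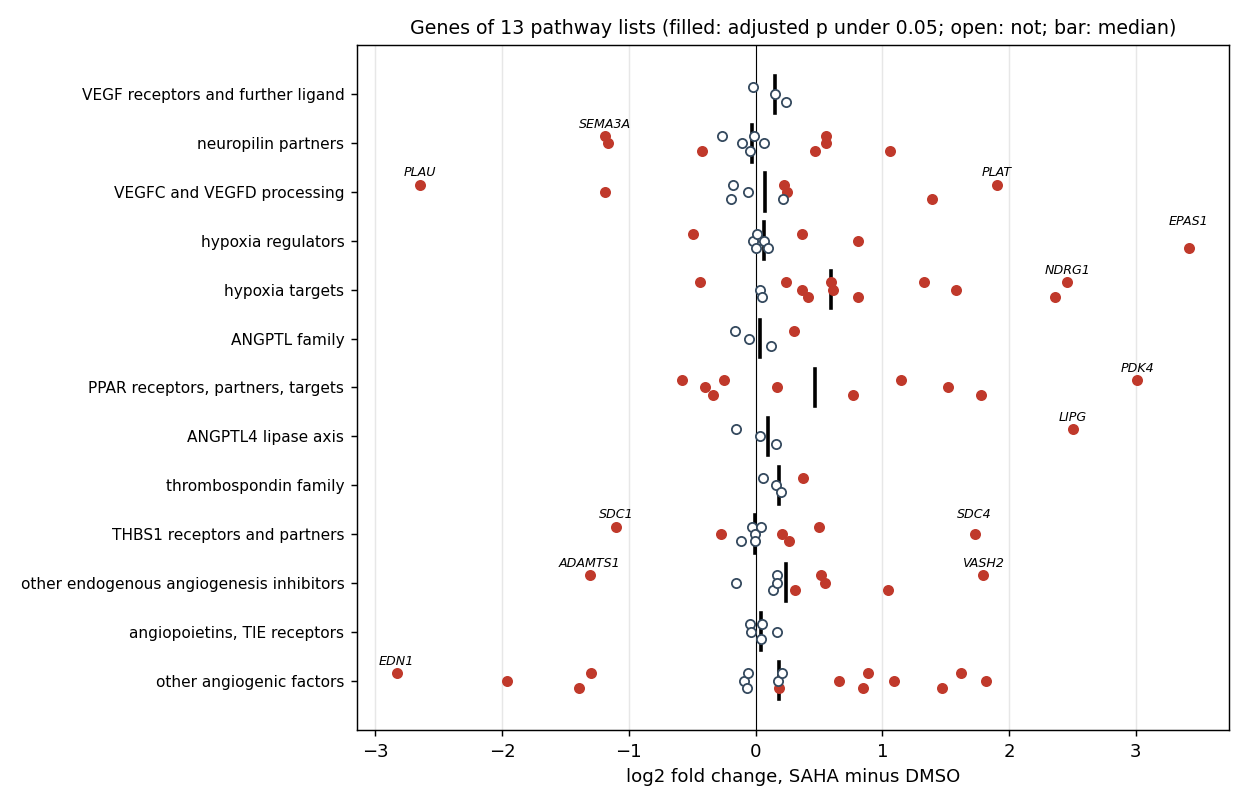
Each row is one of 13 lists of genes around the 8 described here, with the log2 fold change, SAHA minus DMSO, on the horizontal axis, one point per gene (filled: adjusted p under 0.05) and a vertical bar at the list's median. The hypoxia targets (median 0.60) and the PPAR genes (0.47) lie mostly to the right, the VEGF receptors and the angiopoietins with their receptors show open points only, and PLAU, EDN1 and EPAS1 lie far out.

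Genes with the most similar profile were sought by the Euclidean distance between mean-centred log2 values over the 6 arrays, among 8605 genes with a mean of at least 7. With 2 groups of 3 arrays such a distance mostly reflects a log2 difference of like size. Nearest to VEGFC were RIN2, at a distance of 0.153 and a log2 difference of -3.49, and AMIGO2, at 0.260 and -3.53. Nearest to ANGPTL4 were CCDC112 (0.0974) and ARHGAP26 (0.135), with log2 differences of 1.998 and 2.03. THBS1 had IL11 nearest, at 0.163 with a difference of 1.45, then TPST2 at 0.190 with 1.42. For NRP1 they were CDK5RAP2 (0.0622) and CFAP97 (0.0716), and for NRP2 FAM111B (0.0922) and BLZF1 (0.149). For PGF, VEGFB and VEGFA the nearest were KIFAP3 (0.0416), SUPT20H (0.0337) and CBLL1 (0.0747).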

How the data were processed

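Per the labels' protocols, the 6 RNA samples were turned into biotin-labelled cRNA with a 3' IVT kit and read on PrimeView arrays of Affymetrix. The table deposited by the authors holds log2 values for each probe set, made with RMA, per the submitters' processing notes; the software version is not given in the sources used here. RMA makes the arrays' distributions equal (sorted columns differed by at most 0.0936), so a shift of most transcripts one way cannot be read from them.

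Of 49395 probe sets, 102 array controls were left out. Names came from the platform's annotation, checked through a RefSeq gene table of GRCh38.p14 (0 symbols updated, 27 identifiers unmatched); 44988 probe sets named 1 gene, 1832 several and 2473 none. The fit was limma 3.58.1 in R 4.3.3 (lmFit, eBayes), with all 6 arrays and no covariate, as SAHA minus DMSO, with two-sided p-values adjusted by Benjamini and Hochberg over all 49293 probe sets for the 8 genes and over 18132 genes, each by its brightest single-gene probe set, for the lists. Errors beside means are SDs, and errors beside log2 differences are limma's SEs, or plain SEs for differences within arrays. Differences within arrays and array controls were compared by exact permutation tests (SciPy 1.17.1). In each list genes were chosen by a rule on the smallest p and on the opposite direction. The text names most of these and some others. The 8 genes, the lists and the tests were chosen with earlier results of these data known. Alternatives covered 23 settings of normalization, filters, probe set choice, moderation, covariates, thresholds and left-out arrays. The procedure was tested on simulated data. RefSeq promoter windows were matched by symbol for 6 of the 8 genes; VEGFA and NRP1 were not in that table. Figures were drawn with matplotlib 3.10.9.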

Additional observations from a re-analysis of the deposited data

How the results depend on the processing

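The calls of VEGFC, ANGPTL4 and THBS1 were kept under all 23 alternatives, with log2 differences (SAHA minus DMSO) from -3.49 to -3.26, 1.94 to 2.17 and 1.46 to 2.02. The brightest probe set of VEGFA was uncalled under all 23, and of the values called here none changed sign. This does not hold for every VEGFA probe set. With a filter at a mean of 5, 7 of the 25 probe sets kept were lower, and these included VEGFA. VEGFB, at -0.18 with an adjusted p of 0.0444, was no longer called with quantile normalization once more (-0.15), with centring on ribosomal protein genes (-0.061) or poly-A spike-ins (-0.0010), with the ACTB covariate (-0.20), and, at an unchanged -0.18, with the replicate block, without _x_at and _s_at probe sets, by the second brightest probe sets of all genes, at a threshold of 0.01, and with limma's treat at 1.2-fold or 2-fold. Leaving out 1 array at a time gave VEGFB values from -0.22 to -0.16, and the call was kept only without DMSO replicate 2. NRP2 was not called with the ACTB covariate (0.22), and it had no value with a filter at a mean of 7, which removes all its probe sets. Treat at 2-fold, which asks for more than a doubling, ended the calls of PGF (0.73), NRP1 (-1.03) and NRP2 (0.58), left 5 higher and 3 lower of the 34 probe sets, and left 15 higher and 6 lower genes in the lists, against 46 and 18. The filter at a mean of 7, with fewer probe sets tested, left 6 higher and 4 lower, against 11 and 7. Same-numbered SAHA and DMSO arrays correlated at -0.10 to -0.03 in their deviations from the group means. Of the 3 SAHA arrays, 0 correlated best with its own number. No pairing by number was thus seen, but so few arrays cannot show whether same-numbered samples were handled together. The replicate block gave 10 higher and 6 lower probe sets. Centring on spike-ins adds their own spread between arrays to every error; where no cause is given, the cause was not tested. Over the 41 list genes chosen by rule, 861 of the recomputed results stayed on their side of the threshold, 31 lost and 20 gained the call, and 0 turned round. With 3 arrays a group, small changes like that of VEGFB and probe sets near background like those of NRP2 are where the precision ends.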
